A study of Rattus norvegicus with 36 samples.

Results

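Chitinases and chitinase-like proteins of glycoside hydrolase family 18 were followed in the lung, in bronchoalveolar lavage cells and in blood of rats after inhalation of crystalline silica. The 3 genes chosen by symbol were Chi3l1, Chia and Chit1. Chi3l1 and Chit1 had 1 probe each among the 21792 probes of the array, and Chia was not analysed here because no probe carried its symbol. Silica rats had breathed 15 mg/m3 for 6 hours a day on 5 days and air rats had breathed air (0 mg/m3). All 12 were male rats of the strain given as Fisher (CDF) 344, about 3 months old by the labels, which do not say at which point of the study, and tissue was taken 44 weeks after exposure ended. By the labels, the same 6 silica rats and 6 air rats gave all 3 tissues, so 36 arrays were analysed. Replicates were separate rats.

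Family 18 enzymes cleave chitin, the polymer of insect cuticle, fungal walls and parasite coats. Mammals make no chitin but keep 2 active chitinases. Chit1 (chitotriosidase) has been described as a macrophage enzyme, and Chia (acidic mammalian chitinase) as an enzyme of lung and stomach epithelium. Chi3l1 keeps the fold but has lost the catalytic residue, so it binds chitin without cutting it, and it is secreted by macrophages, neutrophils and epithelial cells in inflamed and remodelling lung. Mammalian lungs also respond to particles, allergens and type 2 cytokines with changes in these genes.

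Chit1 and Chi3l1 are next to each other on chromosome 13 and lie on the same strand, and the 250 bases before each start in RefSeq (build GRCr8) are shown because neighbours on one strand had opposite silica differences in the lung. The RefSeq table held promoters for all 3 genes, and Chit1 has 2 annotated starts there. The windows are chr13:48193589-48193838 for Chi3l1, chr13:48117636-48117885 for the upstream start of Chit1 and chr13:48145639-48145888 for its downstream start, all on the plus strand. Capitals mark matches, on either strand, to 5 motifs searched with overlaps allowed.
Chi3l1: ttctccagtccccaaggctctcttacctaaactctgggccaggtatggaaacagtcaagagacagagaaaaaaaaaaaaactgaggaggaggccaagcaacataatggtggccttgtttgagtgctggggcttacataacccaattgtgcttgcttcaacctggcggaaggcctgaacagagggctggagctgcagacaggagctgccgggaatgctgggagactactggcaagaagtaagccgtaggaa
Chit1 upstream start: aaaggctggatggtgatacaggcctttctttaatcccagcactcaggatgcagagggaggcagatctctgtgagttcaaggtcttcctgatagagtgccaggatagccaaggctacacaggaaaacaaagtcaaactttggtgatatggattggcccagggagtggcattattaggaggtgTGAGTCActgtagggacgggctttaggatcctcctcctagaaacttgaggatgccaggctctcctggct
Chit1 downstream start: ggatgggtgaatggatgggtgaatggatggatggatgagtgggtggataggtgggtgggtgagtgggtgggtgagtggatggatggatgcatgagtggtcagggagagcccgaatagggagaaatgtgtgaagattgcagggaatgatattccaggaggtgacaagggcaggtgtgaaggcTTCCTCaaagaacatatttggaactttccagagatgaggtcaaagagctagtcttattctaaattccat
The motifs were the TATA box TATAAA, AP-1 TGANTCA, STAT TTCNNNGAA, PU.1 GAGGAA and C/EBP TTGCNNAA. The Chi3l1 window held none of them. The upstream Chit1 window held 1 AP-1 match starting 69 bases before the start, as did 6.34% of 33469 rat promoter windows of the same length for any AP-1 match. The downstream Chit1 window held 1 PU.1 match, also starting 69 bases before the start, and 23.3% of windows held one. TATAAA was in 12.9%, the STAT motif in 7.67% and the C/EBP motif in 9.22% of windows. These matches are letters only and say nothing of which factor binds.

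The arrays were bright in lung and lavage cells and dimmer in blood. Probes with a detection p under 0.05 numbered 10974 to 11607 per lung array, 9229 to 9773 per lavage array and 7244 to 8861 per blood array. The 95th percentile of raw intensity was 2276 to 2980 in the lung, 2031 to 2901 in lavage cells and 514 to 1104 in blood. The 3 dimmest blood arrays were silica replicate 6 (565), air replicate 1 (514) and air replicate 2 (682). No 2 arrays of a tissue were identical. Of 8 markers of alveolar type II cells, 8 were tested in the lung, 3 in lavage cells and 1 in blood, and of 7 alveolar macrophage markers 7 were tested in the lung, 7 in lavage cells and 4 in blood. Values below are log2 intensities after background correction and quantile normalization within a tissue (neqc in limma), unless raw intensity is named. Probes detected on at least 6 of 12 arrays were tested, with a Benjamini-Hochberg adjusted p under 0.05 as the threshold over 11399 lung, 9564 lavage and 8044 blood probes.

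Chi3l1 rose in the lungs of silica rats. Its raw lung intensity was 7990, 8742, 7253, 8098, 9133 and 8870 in silica rats, against 4233, 4018, 5048, 3746, 3954 and 4010 in air rats. Every silica lung lay above every air lung, and the highest air lung was that of replicate 3. The log2 level was 12.99 ± 0.12 in silica lungs and 11.94 ± 0.24 in air lungs (SD, n = 6 each). The difference was 1.05 ± 0.10 on the log2 scale (SE), 2.07-fold, with a 95% confidence interval of 0.82 to 1.27 and an adjusted p of 0.000157 in limma. It ranked 46th of 11399 tested lung probes by size of rise. In this tissue 17.7% of probes were called, 8.26% higher and 9.46% lower, and silica lay wholly above air for 4.83% of probes.

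Chi3l1 also rose in lavage cells, from a dim level. Its raw intensity there was 614, 731, 946, 853, 728 and 616 in silica rats, against 139, 131, 158, 302, 144 and 119 in air rats. The groups did not overlap, and air replicate 4 stood well above the other air rats. All 12 arrays detected the probe, with detection p up to 0.00485 in air rats. The log2 level was 9.12 ± 0.30 in silica rats and 7.60 ± 0.12 in air rats (SD, n = 6 each). The difference was 1.52 ± 0.12 (SE), 2.87-fold, with a confidence interval of 1.25 to 1.79 and an adjusted p of 6.81e-06 in limma. It ranked 32nd of 9564 probes by size of rise, where 33.3% were called, 15.2% higher and 18.1% lower, and 9.04% had silica wholly above and 9.67% wholly below air.

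The size of the lavage rise depended on how background was removed. In lavage cells the median of probes detected on no array was 7.35 on the neqc scale, against 7.60 for Chi3l1 in air rats. The neqc step inferred a control intensity with an SD of 174 to 348 per lavage array, whereas the signals at the middle and at 1 SD of the detection p gave 7.72 to 8.85. On each lavage array 34 to 42 probes had a detection p above 0 although their signal exceeded the median of probes with p of 0. With control level and SD taken from those signals of the detection p, an alternative chosen after the data had been seen, the difference was 2.60 ± 0.19, 6.08-fold, with an adjusted p of 6.08e-08. The ratio of mean raw intensity was 4.52. The direction and the call held under every alternative run for lavage Chi3l1, and only the size moved.

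**Figure D1:**
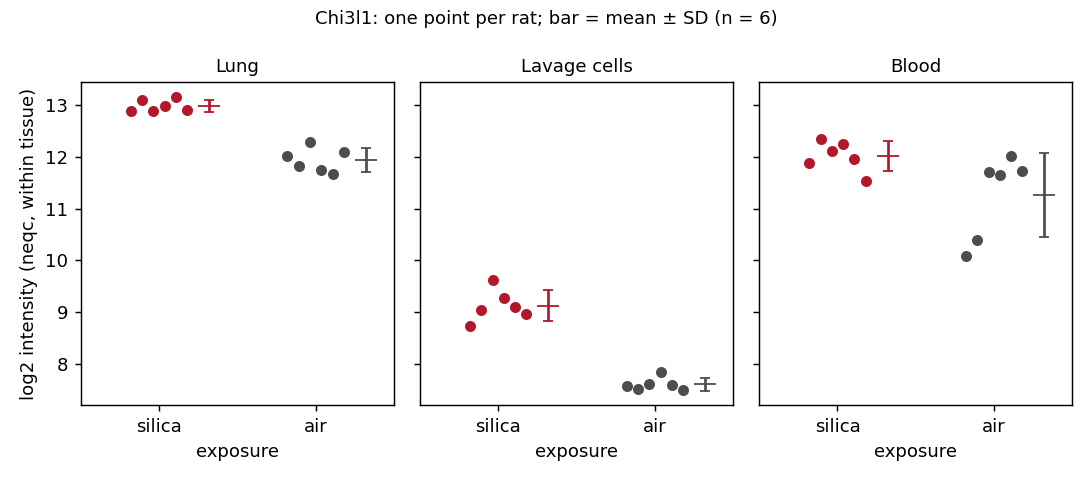
Chi3l1 log2 intensity (neqc, within each tissue, vertical axis) in silica and air rats for lung, lavage cells and blood, 1 point per rat, with the mean and SD beside it (n = 6). Silica lies wholly above air in lung and lavage cells, whereas blood overlaps and 2 air rats are low; heights are not comparable between tissues.

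Blood Chi3l1 did not pass the threshold. Raw blood intensity was 3981, 6688, 5765, 5558, 4563 and 2637 in silica rats, against 884, 1376, 3345, 3332, 4673 and 3440 in air rats. The groups overlapped, and the 2 lowest air values and the lowest silica value were those of the 3 dimmest blood arrays. The log2 level was 12.02 ± 0.29 in silica rats and 11.26 ± 0.81 in air rats (SD, n = 6 each). The difference was 0.76 ± 0.33 (SE), 1.69-fold, with an unadjusted p of 0.0445 and an adjusted p of 0.361 in limma. Without the 3 dimmest arrays it was 0.34, with an adjusted p of 0.511, and without air replicate 1 it was 0.52. Silica lay wholly above air for 0.609% and wholly below for 0.622% of blood probes. No blood probe was called (0% of 8044), while 1072 had an unadjusted p under 0.05, and eBayes with trend and robust options also called 0.

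Chit1, the active chitinase, fell in the lung while its neighbour rose. Raw lung intensity was 314, 323, 378, 355, 286 and 330 in silica rats, against 403, 521, 366, 517, 502 and 388 in air rats. The groups overlapped through silica replicate 3 and air replicate 3. The log2 level was 8.05 ± 0.11 in silica lungs and 8.36 ± 0.12 in air lungs (SD, n = 6 each). The difference was -0.30 ± 0.06 (SE), 1.23-fold lower, with an adjusted p of 0.00758 in limma. It ranked 411th of 11399 by size of fall, where 9.46% of probes were called lower and 4.35% had silica wholly below air. Under a plain median shift of each array it was -0.46, with an adjusted p of 0.078, and with the control level from signals near the middle of the detection p it was -0.48, with an adjusted p of 0.00345.

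Chit1 was below detection outside the lung. Its raw intensity in lavage cells was 49.9 to 59.9 in silica rats, against 49.9 to 61.7 in air rats. In blood it was 58.1 to 73.1 in silica rats, against 59.1 to 65.6 in air rats. None of the 24 arrays had a detection p under 0.05, and the lowest was 0.402, so no difference is given there. The macrophage marker Cd68 was at a log2 level of 14.14 in silica and 14.04 in air lavage cells. Which lung cells held Chit1 was not tested. In bulk tissue, fewer cells of a type and less RNA per cell cannot be told apart.

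**Figure D2:**
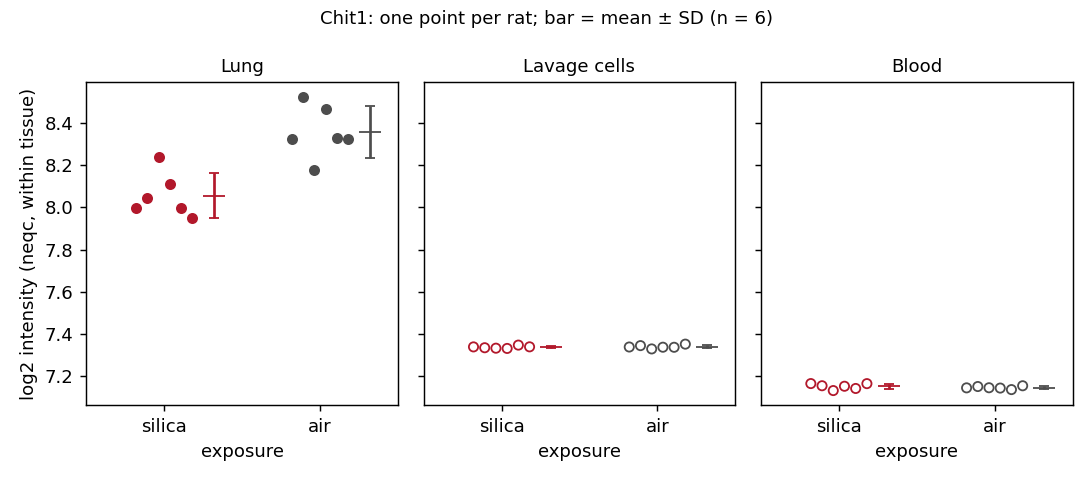
Chit1 log2 intensity (neqc, within each tissue, vertical axis) in silica and air rats for lung, lavage cells and blood, 1 point per rat, with the mean and SD (n = 6). Open points were not detected; all lung arrays detected the probe, with silica mostly below air, and no lavage or blood array did.

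The bead measurement was tighter than the spread between rats. The bead standard error of a lung array was 1.99% to 2.74% of the Chi3l1 signal in silica rats and 2.10% to 2.50% in air rats, over 27 to 55 beads. For lung Chit1 it was 3.91% to 4.93% in silica rats and 2.90% to 4.62% in air rats.

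Set on 1 scale across tissues, with all 36 arrays normalized together, Chi3l1 had a log2 level of 12.86 ± 0.15 in silica lungs, 12.66 ± 0.18 in silica blood, 12.18 ± 0.51 in air blood, 11.56 ± 0.29 in air lungs, 8.96 ± 0.25 in silica lavage cells and 7.59 ± 0.12 in air lavage cells (SD, n = 6 each). Silica lungs and silica blood overlapped in range, as did silica blood and air blood, and air blood and air lungs. Mean raw intensity gave the other order for air rats, 4168 in lungs and 2842 in blood. The order of air blood and air lungs therefore depended on setting the dimmer blood arrays to 1 scale. Both lavage groups lay apart from each other and below every lung and blood array. Lung Chit1 was 7.72 ± 0.08 in silica rats and 7.94 ± 0.09 in air rats on that scale.

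Whether the Chi3l1 rise was larger in lavage cells than elsewhere was tested within rats. Each rat's lavage level minus its lung level was -4.16 to -3.28 in silica rats and -4.69 to -3.91 in air rats, and these ranges overlapped. The mean difference between groups was 0.47 ± 0.17 (SE), with an adjusted p of 0.0699 in limma, and did not pass the threshold that 22.5% of 9131 probes passed. Against blood it was 0.77 ± 0.33, with an adjusted p of 0.12, where 22.6% of 7180 probes passed. Both calls turned on processing. With the control level from signals near the middle of the detection p they were 1.59 (adjusted p = 0.000121) and 1.91 (adjusted p = 0.000133). With the 3 tissues normalized together the lung difference was 0.07 (adjusted p = 0.834) and the blood difference 0.90 (adjusted p = 0.0102). Air replicate 4 and air replicate 1 also decided a call, since without the first the lung difference was 0.56 (adjusted p = 0.0362) and without the second the blood difference was 0.996 (adjusted p = 0.025). Whether the tissues differ in the size of the rise was not settled by these tests.

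No relation between a rat's lung and lavage Chi3l1 passed its test, and the values moved with the scaling. Within the 6 silica rats Pearson's r was -0.08 (exact permutation p = 0.843) and Spearman's rho -0.03 (exact permutation p = 1), and within the 6 air rats r was -0.36 (exact permutation p = 0.535) and rho -0.26 (exact permutation p = 0.658). Without the 2 rats farthest from the median of lung Chi3l1, r was 0.13 in silica rats and -0.72 in air rats. Between lung and blood r was 0.43 in silica rats (exact permutation p = 0.414) and -0.07 in air rats (exact permutation p = 0.879), rho was 0.31 and -0.14 (exact permutation p = 0.564 and 0.803), and r without the 2 farthest rats was 0.56 and -0.07. Over the 4 relations the adjusted p of r was 0.879 and that of rho was 1 for each.

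**Figure D3:**
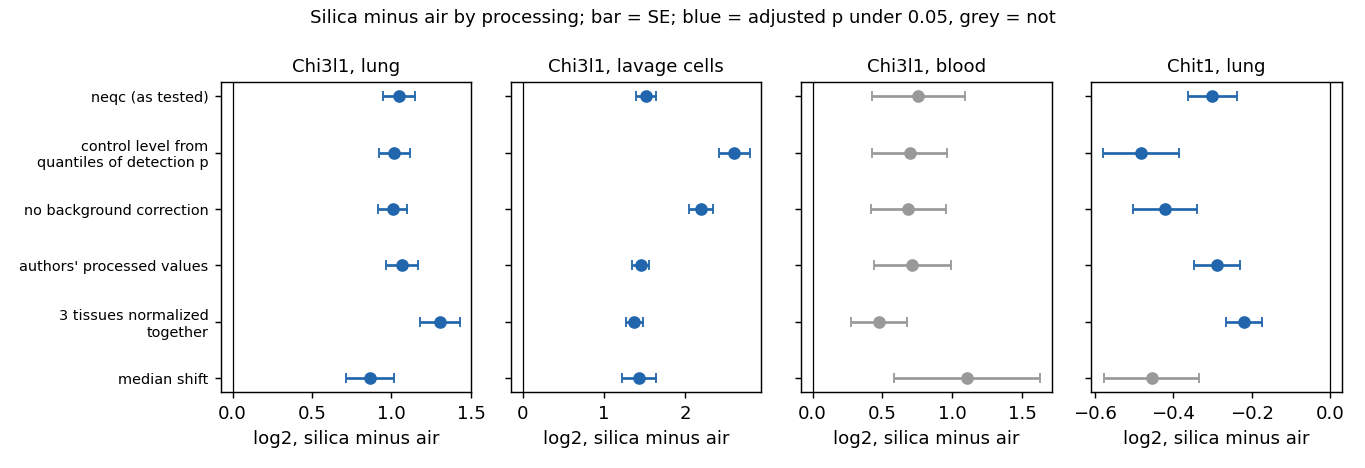
Silica minus air (log2, horizontal axis; each panel has its own range) for Chi3l1 in lung, lavage cells and blood and for Chit1 in lung under 6 ways of processing, with the SE. Lung and lavage Chi3l1 pass the threshold (blue) in all 6, blood Chi3l1 in none, and lung Chit1 in all but the median shift; lavage Chi3l1 runs between 1.37 and 2.60.

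The nearest relatives of the family were mostly silent on these arrays. Ctbs (di-N-acetylchitobiase), a lysosomal family 18 enzyme that trims chitobiose from glycans, was detected on all 36 arrays. Its silica difference was 0.04 in lung, -0.08 in lavage cells and 0.10 in blood, with adjusted p of 0.587, 0.312 and 0.346 in limma. Probes of Chid1, Chi3l3 and Chi3l4 and of a locus annotated as similar to acidic chitinase were detected on no array in any tissue. In the list of family relatives and hexosamine enzymes, 2 of 4 tested lung genes rose, where 8.26% of all probes did, and none fell. The median difference was 0.17, against -0.0043 over all lung probes tested (-0.0057 in lavage cells and -0.0032 in blood). These were Gm2a, the activator protein of ganglioside breakdown (0.50 ± 0.09, adjusted p = 0.00287), and Hexa, a subunit of a lysosomal hexosaminidase (0.30 ± 0.04, adjusted p = 0.000532). Both lost the call under a median shift, with Gm2a at 0.24 (adjusted p = 0.424) and Hexa at 0.06 (adjusted p = 0.813), and again when only consistently detected probes set that median. In lavage cells 0 of 4 tested rose and 2 fell, with a median of -0.12, where 15.2% of all probes rose and 18.1% fell. Hexa (-0.22 ± 0.06, adjusted p = 0.0101) and Nagk, the N-acetylglucosamine kinase (-0.16 ± 0.02, adjusted p = 0.00013), fell.

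Receptors and binding partners of Chi3l1 moved in both directions. In the lung 2 of 8 tested rose and 2 fell, with a median of 0.07, where 8.26% of all probes rose and 9.46% fell. Lgals3 (galectin, a carbohydrate-binding protein) rose by 0.61 ± 0.09 (adjusted p = 0.00153) and Cd44, a hyaluronan receptor, by 0.50 ± 0.09 (adjusted p = 0.00384). Itgb5, an integrin subunit, fell by 0.31 on the log2 scale and Ager, the receptor for advanced glycation end products and a marker of thin alveolar epithelium, by 0.27. Il13ra2, described as the Chi3l1 receptor, differed by 0.05 with an adjusted p of 0.459, and its partner Tmem219 by 0.05 with an adjusted p of 0.523. In lavage cells 2 of 6 rose and 1 fell, with a median of -0.02, where 15.2% of all probes rose and 18.1% fell. Itgav rose by 0.13 (adjusted p = 0.0367), a call lost under 12 of 23 alternatives. Sdc1, detected on 6 of 12 arrays, rose by 0.07, and Cd44 fell by 0.33 on the log2 scale. In air rats Sdc1 was at 7.35, the median of undetected lavage probes. It can have entered the test through the silica rats alone, and its rise then adds no support. Il13ra2, Ager and Ptgdr2 were detected on no lavage array.

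Genes of type 2 responses, in which Chi3l1 and Chia are known to take part, included Retnla, the largest lung rise among all listed genes. In the lung 4 of 8 tested rose and none fell, with a median of 0.09, where 8.26% of all probes rose. Retnla, a secreted product of alternatively activated macrophages and epithelium in rodents, rose by 4.39 ± 0.29 (21.0-fold, adjusted p = 5.56e-05). Arg1, arginase, rose by 0.83, Mrc1, the mannose receptor, by 0.51, and Ccl17, a chemokine for T cells, by 0.19. The cytokines Il4, Il13 and Il25 were detected on no lung or lavage array. In lavage cells 3 of 7 rose and 2 fell, where 15.2% of all probes rose and 18.1% fell. Tgm2, transglutaminase, rose by 0.68 and Ccl17 by 0.56, while Mrc1 fell by 0.47 on the log2 scale and Stat6, the signal transducer of interleukin 4 and 13, by 0.09. Lavage Ccl17 was dim in air rats, at 7.52, and its rise ran from 0.51 to 1.76 across the alternatives. The third to rise was Il4r, by 0.02, named after its value was seen.

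The known inducers of Chi3l1 and their signalling genes were set beside all probes, of which 17.7% passed in the lung and 33.3% in lavage cells. In the lung 1 of 10 tested rose, Csf1, the macrophage growth factor, by 0.12 ± 0.03 (adjusted p = 0.026), and under a median shift its difference was -0.0025. In lavage cells 4 of 10 rose and 1 fell. Il1b rose by 1.13 ± 0.17 (adjusted p = 0.000532) and Csf1 by 1.08 ± 0.11 (adjusted p = 3.29e-05). Osm (0.07) and Socs3 (0.04) rose, and Il6r fell by 0.06 on the log2 scale (adjusted p = 0.0375), a call lost under 15 of 23 alternatives. Il6 was detected on no lung or lavage array.

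**Figure D4:**
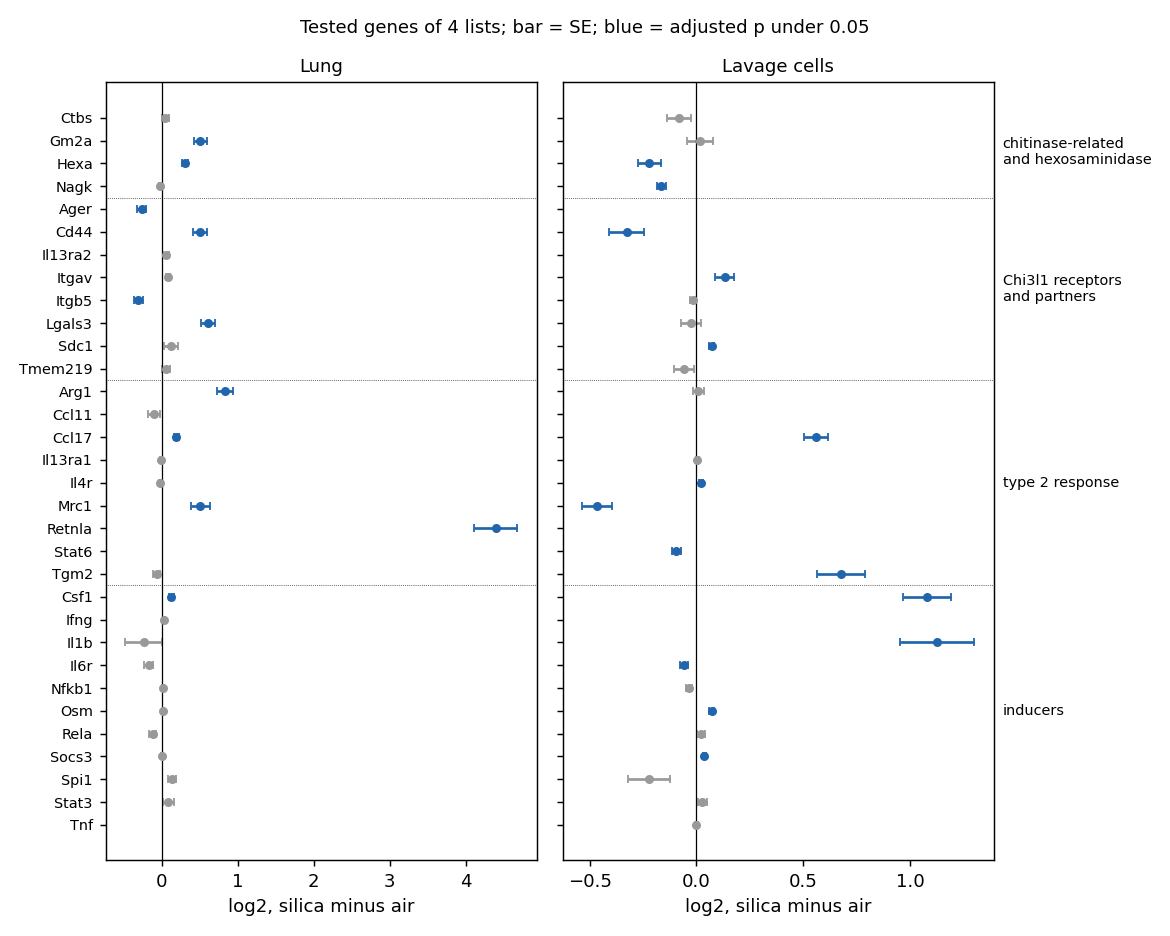
Silica minus air (log2, horizontal axis; the 2 panels have different ranges) for the tested genes of 4 lists, in lung and in lavage cells, with the SE. Blue points passed the threshold; Retnla in lung and Il1b and Csf1 in lavage cells lie farthest to the right.

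Genes of foamy macrophages and lysosomes rose in the same lungs as Chi3l1. Of 15 tested in the lung, 12 rose and none fell, with a median of 0.48, where 8.26% of all probes rose. Like the other lists, this one was chosen with earlier results of these data known, so its counts are a description and no test. Spp1 (osteopontin) rose by 3.62 ± 0.36, Mmp12 (macrophage elastase) by 2.68, Fabp4 by 1.63 and Ctsk (cathepsin K) by 1.34. In lavage cells 7 of 15 rose and 2 fell, with a median of 0.10, where 15.2% of all probes rose and 18.1% fell. Apoe rose by 4.77 ± 0.29, Spp1 by 3.56, Mmp12 by 2.03 and Fabp4 by 0.58.

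Markers of cells that can make Chi3l1 moved in both directions, and their part in the Chi3l1 difference was not tested. Of all probes, 8.26% rose and 9.46% fell in the lung, 15.2% rose and 18.1% fell in lavage cells, and 0% passed in blood. Of 9 monocyte and macrophage markers in the lung 6 rose and none fell, with a summed linear level of 13510 to 20750 in silica rats and 9850 to 12190 in air rats. Each such sum takes every listed marker with a probe, tested or not, so undetected probes add background to it. Of 8 alveolar type II cell markers in the lung 4 rose, with a sum of 105500 to 117000 in silica rats and 96050 to 112000 in air rats. Neutrophil markers in the lung had 1 of 7 up and none down, and their sums overlapped (6264 to 8209 in silica rats and 3708 to 8166 in air rats). In lavage cells 5 of 8 monocyte and macrophage markers rose, with a sum of 36170 to 41510 in silica rats and 33420 to 37850 in air rats. Among them C1qc was detected on 6 of 12 arrays and was at 7.38 in air rats, near the 7.35 median of undetected lavage probes. A probe detected on 6 arrays can enter the test through the silica rats alone, and its rise then adds no support. Of 7 alveolar macrophage markers in lavage cells 2 rose, Fabp4 by 0.58 and Car4, detected on 6 of 12 arrays, by 0.22. Car4 was also at 7.38 in air rats, so the limit given for C1qc holds for it. The 3 that fell were Pparg (by 0.54 on the log2 scale), Mrc1 (by 0.47) and Cidec (by 0.05). Their list had a sum of 14620 to 19080 in silica rats and 15440 to 18850 in air rats. Of 5 club cell markers in lavage cells 0 rose and 2 fell (among them Scgb1a1, by 0.89 on the log2 scale), with a sum of 21930 to 37860 in silica rats and 32150 to 44150 in air rats. In the lung 3 of 7 alveolar macrophage markers rose and 1 fell, with a sum of 5261 to 7077 in silica rats and 4923 to 6183 in air rats. There 0 of 5 club cell markers passed, with a sum of 32060 to 40830 in silica rats and 31610 to 55100 in air rats. In lavage cells 3 of 6 tested neutrophil markers rose. The sum over all 9 with a probe was 1559 to 1997 in silica rats and 1380 to 1476 in air rats. It holds much background and is not read as a neutrophil level. In air rats Cxcr2 (7.38) and Mmp8 (7.37) lay near the 7.35 median of undetected lavage probes, and S100a9 and Fpr1 were at background on every lavage array. S100a9 was also detected on 0 lung arrays, where S100a8 was detected on all 12, and whether its probe works was not tested. In blood 0 of 6 neutrophil markers passed, and their sum was 9975 to 14940 in silica rats and 6262 to 12800 in air rats. The median blood difference of these markers was 0.26.

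The genes whose pattern over the 12 arrays of a tissue lay closest to a family member were found by the root mean square (RMS) difference of centred log2 values. Closest to lung Chi3l1 were Hp (haptoglobin, RMS 0.13), Noxo1, C2 (complement), Cxadrl1, Ncf1 (an NADPH oxidase subunit) and F3 (tissue factor), while Chi3l1 itself varied by 0.55. All 6 were called higher, with differences of 0.85 to 1.13. Closest to lung Chit1 were Cuedc1 (RMS 0.05), Col5a1, Plxnd1, Bcar1, Ccnd1 and Rtn2, with differences of -0.30 to -0.24. Closest to lavage Chi3l1 were Fcgr2b (an IgG receptor, RMS 0.14), Ptafr (the receptor of platelet activating factor), Nudt4, Ninj1, Ccrl2 and Ifitm1, with differences of 1.24 to 1.601. Fcgr2b had log2 values of 9.01, 9.17, 9.67, 9.43, 9.12 and 8.99 in silica rats, against 7.96, 7.97, 7.92, 8.20, 7.87 and 7.83 in air rats. Silica replicate 3 and air replicate 4 were the highest of their groups for Fcgr2b and Chi3l1. Fcgr2b was picked for its likeness over these same arrays, so this match is no separate result. Closest to blood Chi3l1 were Ccr1, Fbxl5, Bst1, Aif1, Cfd and Cd302, none of which passed. Each of them, like Chi3l1, was lowest on air replicates 1 and 2, both among the 3 dimmest blood arrays. Ccr1 was at 8.02 and 8.20 there, against 9.59 to 9.93 in the other air rats. The blood likeness therefore includes the low values of those arrays. The lung and lavage names were all called themselves, so this likeness includes the silica difference. With the other control level 3 of 6 lung Chi3l1 names, 1 of 6 lung Chit1 names, 0 of 6 lavage names and 4 of 6 blood names were shared.

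The genes around the pair on chromosome 13 did not move as 1 block. Of 12 consecutive protein-coding genes centred on the pair, all 12 had a probe, but not all were detected on enough arrays to be tested. Optc, Adora1 and Myog were not tested in the lung. Atp2b4, Optc, Prelp, Fmod, Chit1, Adora1 and Myog were not tested in lavage cells. Of all probes, 17.7% passed in the lung and 33.3% in lavage cells. In the lung Prelp, a matrix proteoglycan, fell by 0.55 ± 0.04 on the log2 scale (adjusted p = 5.56e-05) and Btg2, an antiproliferative gene, by 0.36 (adjusted p = 0.0297), while Tmem183a rose by 0.11. Mybph, next after Chi3l1, differed by 0.0038 with an adjusted p of 0.906. In lavage cells Mybph differed by 0.02 (adjusted p = 0.558), Ppfia4 fell by 0.14 and Tmem183a rose by 0.14.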

How the data were processed

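Gene expression was measured in total RNA on 36 Illumina rat BeadChip arrays. Per the file headers, the deposited tables hold the mean bead intensity of each probe, not normalized, a detection p-value against negative controls, and bead counts. A deposited table of the authors' processed values is on a log2-like scale. Its background step is not given in the sources used here, and BeadStudio, lumi and limma are listed without versions in the submitters' processing notes. Groups and rats came from the labels. Of 180 value columns, 0 lacked a sample. One blood silica sample, replicate 6, is numbered differently in its title and description, and was matched through the description. That it came from the same rat as the lung and lavage samples rests on the labels. Without that rat the lavage minus blood difference of Chi3l1 was 0.70, with an adjusted p of 0.195 in limma.

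Intensities were background corrected with neqc in limma 3.58.1 (R 4.3.3; offset 16; control level inferred from detection p-values), quantile normalized within each tissue and log2 transformed. The offset understates changes of dim probes. Probes with detection p under 0.05 on at least 6 arrays were compared by lmFit and eBayes, two-sided, with Benjamini-Hochberg adjustment over all tested probes. Tissue differences used each rat's difference of log2 values. The main fit follows the fixed design. The other control level, which gave larger lavage changes and passed both tissue differences, was tried after seeing the data and is an alternative. Family members and gene lists were chosen with earlier results of these data known. Alternatives were other background, scaling, filters, models and left-out arrays. Named genes were all member probes, the 6 most alike per member and tissue, up to 4 called genes of each list by size, and the nearest relatives. A list holds 1 probe per gene, the brightest. A single listed gene is not reported here and is left out of its list's counts. Symbols were updated through RefSeq GRCr8: 9918 probes matched a symbol, 4817 a synonym, 6940 kept the file's symbol and 117 had none. Renamed in the text are Chid1 (RGD1308955 in the files), Itgb5 (RGD1563276), Tmem219 (RGD1560566), Ptgdr2 (Gpr44), Il25 (RGD1561632), Il4r (Il4ra) and Il6r (Il6ra), and in a figure Spi1 (Sfpi1). Same-numbered silica and air rats are different rats and their deviations correlated between -0.493 and 0.388, so numbers were not treated as pairs. Scripts were tested on simulated data. Slide and scan time were not used as blocks, being absent from labels and headers, and array number limits precision.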

Additional observations from a re-analysis of the deposited data

Results flagged for a closer look

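Of 120 groups of 6 rats checked for a single rat far from the others, 8 were singled out, and chance would single out about 1 in 20. The one in a family member was lavage Chi3l1, where air replicate 4 was at 7.83 and the next air rat at 7.60. The others were lung Noxo1 in silica replicate 6 (8.39, next 8.75), lung Cuedc1 in silica replicate 3 (8.24, next 8.04), lung Ccl17 in air replicate 3 (7.63, next 7.57), lung Spp1 in air replicate 3 (7.80, next 7.60), lavage Nudt4 in silica replicate 3 (10.15, next 9.94), lavage Sdc1 in air replicate 2 (7.34, next 7.35) and lavage Apoe in air replicate 6 (8.20, next 7.56). Lavage Sdc1 was near background in air rats.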

How the results depend on the processing

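Lung and lavage Chi3l1 kept direction and call under all 23 alternatives each, at 0.86 to 1.30 and 1.37 to 2.60, and blood Chi3l1 stayed uncalled under all 24, at 0.34 to 1.10. Lung Chit1 lost its call under 1 of 23, a median shift (-0.46). Leaving out 1 rat gave 0.99 to 1.12 for lung Chi3l1, -0.34 to -0.27 for lung Chit1, 1.42 to 1.598 for lavage Chi3l1, 0.52 to 0.91 for blood Chi3l1, 0.35 to 0.56 for the lavage minus lung difference and 0.61 to 0.996 for the lavage minus blood difference. The lavage minus lung difference passed with the control level from quantiles of the detection p (1.59) and with no background correction (1.19), both added after seeing the data. The lavage minus blood difference passed with the same settings (1.91 and 1.51), with the tissues normalized together (0.90, and 0.90 with the rat left out as a block), and without the rats of the 3 dimmest blood arrays (1.18, added after seeing the data). With the replicate number as a block, lung Chi3l1 had an adjusted p of 0.00992, lung Chit1 0.0449, lavage Chi3l1 0.000341 and blood Chi3l1 0.483, so the pairing changed no such call. That block lowered the lung calls to 603 higher and 665 lower, against 942 and 1078. A median shift gave 37 and 40 in the lung and 275 and 207 in lavage cells, against 1458 and 1729, and a shift to the median of detected probes gave 322 and 659 in the lung and 513 and 721 in lavage cells. The other named genes gave 56 results, each a gene in 1 tissue, so a gene named in more than 1 tissue counts again. Of their 1293 values, 1222 kept direction and side and 70 lost the call (32 of them under a median shift). The remaining 1 turned, Csf1 in the lung under a median shift (-0.0025). Under a median shift the lung and lavage relation was -0.70 in silica rats (exact permutation p = 0.075), against -0.08, and 0.16 in air rats (p = 0.693), against -0.36. Dim probes limit the sizes, since neqc and no correction differ most there. The cause of these changes was not tested.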
